A study of Mus musculus with 12 samples.

Results

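Loss of *Nf2* mRNA on a background of low *Rasa1* mRNA was examined in 6 of the 12 RNA-seq libraries of the series, 3 deposited tables with names beginning in Do and 3 with names containing Rasa1_KO, chosen by those names. The cells were S1, a mouse gastric cancer line made from the ChetPS model, in which Cdh1 (F/+), Trp53 (F/F) and Smad4 (F/F) are conditional alleles in the stomach, and all 12 libraries share that background. Knockouts were made with Cas9 and lentiviral guide RNAs in pooled cells rather than single clones, and the cells were grown as tumorspheres, floating colonies in serum-free medium on low-attachment plates, although the labels call the cell type monolayer cell. The sample labels and the table names disagree. The 3 libraries called the Do tables here carry the genotype label Rasa1 KO, and the 3 called the Rasa1_KO tables carry the label Rasa1 KO, Nf2 KO. The other 6 libraries are labelled control and Nf2 KO. The Do and Rasa1_KO tables held 76472023 to 96674463 counts each. The study describes its RNA profiles as technical replicates, and nothing in the labels says that the 3 libraries of a group came from separate cultures. Every SE and p-value below therefore measures the spread between such libraries and not that between independent cultures of a genotype, and n counts libraries.

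Merlin, the product of *Nf2*, sits beneath the cell membrane and activates the Hippo kinases LATS1 and LATS2, which phosphorylate YAP and TAZ and keep them out of the nucleus. Without that brake YAP and TAZ join the TEAD DNA-binding factors and raise genes of growth, cytoskeleton and matrix. *Rasa1* encodes a GTPase-activating protein that switches Ras off. In the stomach, YAP activity is associated with regeneration and with the loss of differentiated features in tumours.

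*Nf2* (chromosome 11, 4757639 to 4849544, GRCm38) was at 11.6, 11.98 and 12.1 CPM (read counts scaled to a common library size) in the Do tables and at 64.1, 57.3 and 56.7 CPM in the Rasa1_KO tables. The groups did not overlap, and the Do tables carried a log2 fold change of -2.30 ± 0.08 (SE, n = 3 against 3, adjusted p = 9.9e-07). The libraries labelled Nf2 KO read 14.4, 13.2 and 13.1 CPM and the control libraries 59.2, 60.6 and 53.2 CPM, so the tables with low *Nf2* were the 3 named Do and the 3 labelled Nf2 KO. This goes against the label Rasa1 KO of the Do tables, and every direction below is therefore given as Do tables minus Rasa1_KO tables. *Rasa1* (chromosome 13, 85214699 to 85289486) was at 34.6, 30.5 and 30.9 CPM in the Do tables and 18.1, 20.5 and 23.4 CPM in the Rasa1_KO tables, a log2 fold change of 0.64 ± 0.11 (adjusted p = 0.0021). Both groups lay below the control libraries, at 61.6, 74.4 and 75.5 CPM, and below the libraries labelled Nf2 KO, at 97.7, 101 and 96.2 CPM. Both genes are plotted for the 12 libraries.

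**Figure D1:**
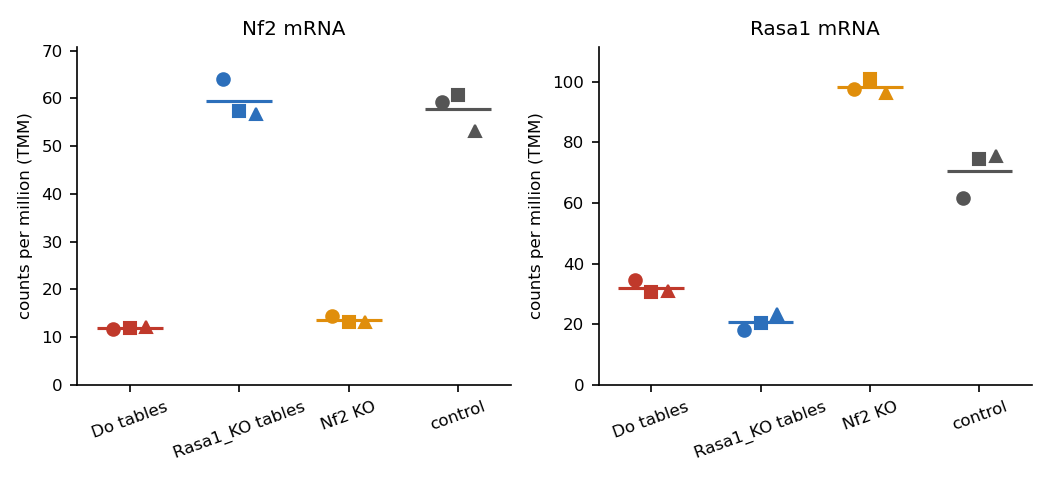
*Nf2* and *Rasa1* mRNA in CPM (linear axis from 0) in each of the 12 libraries, grouped by table name or label. Points are libraries and lines are group means. *Nf2* is low in the Do and Nf2 KO groups, and *Rasa1* is low in the Do and Rasa1_KO groups.

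1 library stood apart from its group. The Rasa1_KO table with no number in its name was at least 3-fold above or below both of its companions at 448 genes, against 23 to 29 genes for each of the companions and 22 to 25 for each Do table. Where leaving it out changed the call of a gene whose value is printed, or moved a printed fold change, a list's count or a list's median by over 1.5 times, the value without it is given beside the result. No pair among the 6 libraries agreed within counting error: the per-gene chi-square had a median of 2.49 or more in each pair. In the text replicate 1 of the Rasa1_KO tables is the one with no number. Of 10 fibroblast markers 7 were in the tables and these 7 were higher in the Do tables. Their summed level there was 2485 to 2621 CPM against 119 to 273 CPM in the Rasa1_KO tables, most of it *Col3a1* in both groups. *Lum*, *Thy1* and *Postn*, which also mark fibroblasts, were not in the tables, which list only genes counted in all 12 libraries. Epithelial markers summed to 7702 to 8061 CPM in the Do tables and 6494 to 7589 CPM in the Rasa1_KO tables. Immune markers summed to 21.5 to 24.0 CPM against 8.35 to 18.2 CPM, with none of the 3 tested passing and 1 passing without the unnumbered library. Endothelial markers summed to 3.01 to 4.2 CPM against 1.54 to 1.60 CPM, and 2 of the 4 tested, *Kdr* (2.41) and *Eng* (1.70), were higher. The part of these markers in the results was not tested. In these bulk samples a change in the number of cells of one kind and a change in RNA per cell cannot be told apart.

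Of 17582 genes tested with edgeR's quasi-likelihood test, 8306 (47.2%) passed an adjusted p of 0.05, 4118 (23.4%) higher and 4188 (23.8%) lower in the Do tables. At least 3-fold changes were fewer, 366 genes (2.08%) higher and 634 (3.61%) lower. When the unnumbered Rasa1_KO library was left out, 10477 genes passed, with 370 at least 3-fold higher and 711 at least 3-fold lower.

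The 15 largest increases among the genes eligible to be named ran from 3.77 to 7.39 on the log2 scale. *Col1a2* (chromosome 6, 4505618 to 4541543), a chain of type I collagen, was at 29.6, 30.7 and 29.2 CPM in the Do tables and 0.0672, 0.293 and 0.189 CPM in the Rasa1_KO tables. Its log2 fold change of 7.39 ± 0.30, or 168-fold, was the largest among the genes eligible to be named (adjusted p = 2.9e-06, 6.96 without the unnumbered table). The Do tables were tightly grouped and stood far above the 3 Rasa1_KO tables, each under 0.3 CPM. *Pdgfra*, the receptor for PDGF-A, was at 36.4, 39.6 and 32.3 CPM in the Do tables and 0.347, 0.905 and 1.03 CPM in the Rasa1_KO tables, a log2 fold change of 5.59 ± 0.32 (adjusted p = 1.3e-05). *Fgfr1*, a fibroblast growth factor receptor, was at 21.5, 26.7 and 20.8 CPM in the Do tables and 0.851, 1.38 and 1.21 CPM in the Rasa1_KO tables (4.34 ± 0.20, adjusted p = 5.7e-06). *Mmp2*, a gelatinase that cleaves basement membrane collagen, was at 26.1, 28.5 and 25.4 CPM in the Do tables and 0.672, 1.48 and 1.37 CPM in the Rasa1_KO tables (4.53 ± 0.26, adjusted p = 1.4e-05). For these receptors and the protease the lowest Do table was far above the highest Rasa1_KO table. *Il1rl1*, the receptor for IL-33, was at 71.5, 69.1 and 69.9 CPM in the Do tables and 2.80, 4.38 and 5.13 CPM in the Rasa1_KO tables (4.11 ± 0.21, adjusted p = 8.2e-06). Its ligand *Il33*, an epithelial alarmin, was also higher, at 601, 578 and 576 CPM in the Do tables and 144, 224 and 244 CPM in the Rasa1_KO tables (1.53 ± 0.18, adjusted p = 0.00032). The 15 strongest increases also took in *Gng2* (6.03), a G-protein gamma subunit, and *Prrx1* (3.77), a mesenchymal homeobox factor. *Rgs17* (5.19, 4.72 without the unnumbered table), a regulator of G-protein signalling, and *Cacna1c* (4.95, 4.48 without it), an L-type calcium channel, were among them. *Snhg18*, *Rgcc*, *Fmo1*, *Podnl1*, *Tmem119* and *Serpinb7* completed them with log2 fold changes between 3.92 and 5.01.

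The 15 largest decreases ran from -5.77 to -4.75. *Hp* (chromosome 8, 109575128 to 109579172), which encodes the haemoglobin scavenger haptoglobin, was at 12.5, 10.7 and 14.1 CPM in the Do tables and 869.7, 616 and 570.5 CPM in the Rasa1_KO tables. The groups were 54.4-fold apart, a log2 fold change of -5.77 ± 0.19 (adjusted p = 1.0e-06). *Fgb*, the fibrinogen beta chain, was at 0.642, 0.988 and 0.799 CPM in the Do tables and 43.8, 43.2 and 45.0 CPM in the Rasa1_KO tables (-5.74 ± 0.15, adjusted p = 4.4e-07). The alpha chain gene *Fga* followed it at a lower level, at 0.101, 0.11 and 0.0773 CPM in the Do tables and 4.30, 4.29 and 5.27 CPM in the Rasa1_KO tables (-5.55 ± 0.24, adjusted p = 3.9e-06). *Gc*, the vitamin D binding protein, was at 8.11, 7.92 and 7.87 CPM in the Do tables and 427, 322 and 329 CPM in the Rasa1_KO tables (-5.48 ± 0.13, adjusted p = 4.4e-07). Each of these 4 genes separated the groups completely, and *Hp* and *Gc* were highest in the unnumbered Rasa1_KO table. *Hpx* (-5.07), the haem scavenger hemopexin, *Saa3* (-5.01), an acute-phase protein, and *C4b* (-4.75), a complement component, were lower as well.

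For several other genes of these 15 the unnumbered table lay away from its companions. *Dmbt1*, a mucosal scavenger protein, was at 44.9, 49.0 and 46.0 CPM in the Do tables and 861, 2337 and 2337 CPM in the Rasa1_KO tables (-5.30 ± 0.40, adjusted p = 3.9e-05). *Pigr*, which carries antibodies across epithelium, was at 0.189, 0.293 and 0.142 CPM in the Do tables and 1.88, 15.9 and 16.5 CPM in the Rasa1_KO tables (-5.76 ± 0.87, adjusted p = 0.00099). In both, the unnumbered table was the Rasa1_KO table nearest the Do tables, as it was for *Fcgbp* (-4.83, -5.26 without that table), a mucus protein. The opposite held for *Slc17a1*, a phosphate and urate transporter, at 0.655, 0.488 and 0.438 CPM in the Do tables and 45.9, 7.92 and 7.77 CPM in the Rasa1_KO tables, whose log2 fold change of -5.25 ± 0.80 shrank to -3.89 without that table. *Cpn1*, a carboxypeptidase of plasma, behaved likewise, at 0.617, 1.09 and 0.76 CPM in the Do tables and 60.5, 8.53 and 8.70 CPM in the Rasa1_KO tables, with -4.95 ± 0.86 against -3.38. The remaining genes of the 15 were *Fam167a* (-4.92) and *Aox3* (-4.79). Each of these 30 genes kept its direction and its call under all 13 alternatives tried.

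**Figure D2:**
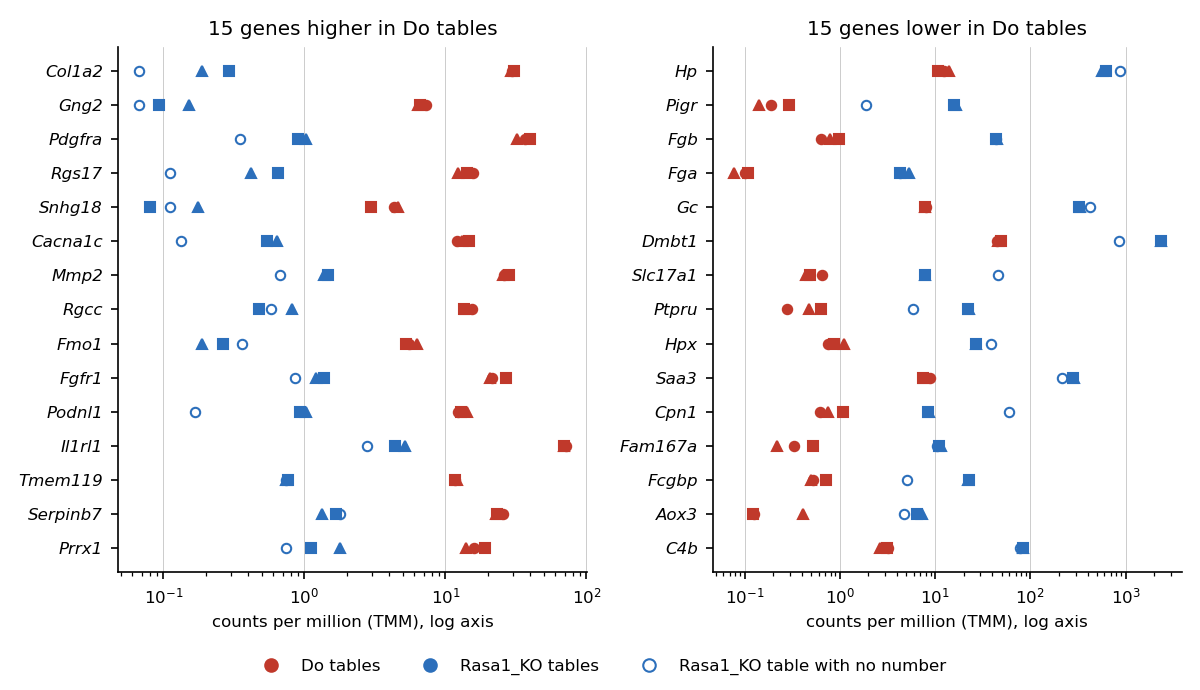
CPM on a log axis in each of the 6 libraries for the 15 genes most raised (left) and the 15 most lowered (right) in the Do tables, ordered by log2 fold change. Red marks are Do tables, blue marks Rasa1_KO tables, and open circles the Rasa1_KO table with no number. The groups do not overlap for any of the 30 genes, as the rule that chose them required. On the right the open circle lies away from its companions for *Slc17a1*, *Cpn1*, *Pigr*, *Dmbt1*, *Fcgbp* and *Ptpru*. On the left it lies below them for *Podnl1*, *Cacna1c* and *Rgs17*, among others.

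Among genes known as YAP/TAZ-TEAD targets, 8 of 22 were higher (36.4%, against 23.4% of all genes), 6 were lower (27.3%, against 23.8%) and 8 did not pass, with a median log2 fold change of 0.27 against 0.00 over all genes. *Ankrd1*, a muscle ankyrin repeat protein and a frequent readout of YAP, was at 409, 384 and 405 CPM in the Do tables and 79.2, 135 and 136 CPM in the Rasa1_KO tables (1.78 ± 0.20, adjusted p = 0.00023). *Amotl2*, an angiomotin that binds YAP in turn, was at 192, 197 and 204 CPM in the Do tables and 43.5, 64.6 and 65.4 CPM in the Rasa1_KO tables (1.78 ± 0.16, adjusted p = 7.3e-05). *Ccdc80* (1.68), *Rbms3* (1.58) and *Igfbp3* (0.98, 0.63 without the unnumbered table) were higher, while *Dock5* (-1.11), *Fjx1* (-0.92, -0.56 without that table) and *Arhgef17* (-0.89) were lower. The call of *Igfbp3* was lost without any 1 of the Do tables. The calls of the matricellular genes *Ccn1* and *Ccn2*, widely used YAP readouts, depended on 1 library and on the fit. With all 6 libraries kept, *Ccn1* passed with a replicate block by table number or by title number. *Ccn2* passed with DESeq2 or with the block by table number. *Ccn1* was at 154, 157 and 153 CPM in the Do tables and 25.6, 99.1 and 103 CPM in the Rasa1_KO tables, with the Do tables above all Rasa1_KO tables, yet the log2 fold change of 1.03 ± 0.43 did not pass (adjusted p = 0.082). Without the unnumbered table it was 0.62 (adjusted p = 3.8e-06). *Ccn2* was at 447, 460.3 and 461 CPM in the Do tables and 204, 389.5 and 387 CPM in the Rasa1_KO tables, 0.49 ± 0.22 with that table (adjusted p = 0.11) and 0.24 without it (adjusted p = 0.0017). Without it 11 of the 22 were higher and 6 lower.

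TEAD factors recognise the letters CATTCC or, on the other strand, GGAATG. Promoter windows of 250 bases upstream of the RefSeq start (GRCm38.p6) were found for 15 of the 22 targets, and 6 of these 15 held the letters, *Ankrd1*, *Amotl2*, *Ccn1*, *Axl*, *Crim1* and *Ptpn14*. Of the promoters of all 12198 tested genes with a window, 1339 (11%) held them. The windows of *Ankrd1*, which was higher, and of *Ccn1*, whose call depended on 1 library and on the fit, are shown 5′ to 3′ with the letters in capitals. The window of *Ankrd1* is chr19:36119845-36120094, minus strand, and holds the letters beginning at 210 and 123 bases before the start. The window of *Ccn1* is chr3:145649986-145650235, minus strand, with the letters beginning 103 bases before the start. A match describes the sequence and does not show that a factor bound there.
Ankrd1: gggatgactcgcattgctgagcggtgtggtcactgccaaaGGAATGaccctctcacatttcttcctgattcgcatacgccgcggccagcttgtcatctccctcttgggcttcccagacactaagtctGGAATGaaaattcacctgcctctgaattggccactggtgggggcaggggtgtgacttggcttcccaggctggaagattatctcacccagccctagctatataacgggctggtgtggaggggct
Ccn1: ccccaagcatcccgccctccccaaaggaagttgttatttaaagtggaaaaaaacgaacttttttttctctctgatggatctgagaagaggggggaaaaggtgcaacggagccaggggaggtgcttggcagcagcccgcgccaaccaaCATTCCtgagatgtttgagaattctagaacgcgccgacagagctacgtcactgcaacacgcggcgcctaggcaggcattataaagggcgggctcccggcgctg

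Of 26 Hippo pathway components 9 were higher (34.6%, against 23.4% of all genes) and 11 lower (42.3%, against 23.8%), with a median of -0.15 (-0.10 without the unnumbered library). *Tead2* rose while *Tead1* fell. *Tead2* was at 51.1, 51.0 and 52.2 CPM in the Do tables and 23.9, 8.52 and 8.23 CPM in the Rasa1_KO tables (1.94 ± 0.37, adjusted p = 0.0032, 2.62 without the unnumbered table). *Tead1* was at 27.0, 33.8 and 17.4 CPM in the Do tables and 64.6, 63.4 and 59.8 CPM in the Rasa1_KO tables (-1.25 ± 0.21, adjusted p = 0.0016). The transcript of *Yap1* read 94.6, 102 and 99.7 CPM in the Do tables and 120.1, 106 and 108 CPM in the Rasa1_KO tables and did not pass (-0.15 ± 0.07, adjusted p = 0.1), and that of *Wwtr1*, which encodes TAZ, was lower by a small amount (-0.29). *Lats2*, both a kinase of the pathway and a target of YAP, was higher (0.48).

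Canonical Wnt targets were more often lower than higher in the Do tables. Of 19 listed, 17 were tested, 8 lower (47.1%, against 23.8% of all genes) and 4 higher (23.5%, against 23.4%), with a median log2 fold change of -0.47. *Axin2*, the negative regulator that reports beta-catenin activity most directly, was at 8.01, 8.73 and 8.63 CPM in the Do tables and 36.7, 25.3 and 23.7 CPM in the Rasa1_KO tables (-1.74 ± 0.16, adjusted p = 8.8e-05). *Lgr5*, the R-spondin receptor of stem cells, was at 7.38, 8.89 and 7.28 CPM in the Do tables and 24.1, 24.0 and 25.4 CPM in the Rasa1_KO tables (-1.63 ± 0.10, adjusted p = 2.1e-05). *Cd44*, a hyaluronan receptor, was at 161, 179 and 134 CPM in the Do tables and 376, 399 and 421 CPM in the Rasa1_KO tables (-1.32 ± 0.11, adjusted p = 6.4e-05). All 3 were lower in every Do table than in any Rasa1_KO table, as was *Lef1* (-1.61), the nuclear partner of beta-catenin. The 4 that rose were *Aqp5*, *Myc*, *Ccnd1* and *Apcdd1*. *Aqp5*, a water channel of gastric stem cells, was at 32.5, 28.2 and 31.8 CPM in the Do tables and 4.37, 2.26 and 2.71 CPM in the Rasa1_KO tables (3.32 ± 0.22, adjusted p = 2.4e-05). The cyclin *Ccnd1* was at 362, 377 and 374 CPM in the Do tables and 153, 201 and 203 CPM in the Rasa1_KO tables (1.01 ± 0.12, adjusted p = 0.00029). *Myc* was at 73.2, 83.8 and 74.5 CPM in the Do tables and 19.2, 42.9 and 42.6 CPM in the Rasa1_KO tables (1.15 ± 0.28, adjusted p = 0.0094, 0.86 without the unnumbered table). The target genes thus did not move one way, and *Aqp5*, *Lgr5* and *Cd44* are also on the list of stem-cell markers.

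Ligands, receptors and antagonists of the Wnt pathway numbered 35 tested of 50 listed (median 0.43). Of these 14 were higher (40%, against 23.4% of all genes) and 8 lower (22.9%, near the 23.8% of all genes). *Wnt5a*, a non-canonical ligand, was at 9.80, 9.91 and 8.93 CPM in the Do tables and 2.72, 3.06 and 3.11 CPM in the Rasa1_KO tables (1.70 ± 0.12, adjusted p = 3.6e-05). *Porcn*, the acyltransferase that Wnt secretion needs, was higher (1.63), as were the ligands *Wnt9a* (2.51) and *Wnt7b* (0.52). The secreted antagonist *Sfrp2* was higher (3.26). Among receptors *Ror1* was lower, at 5.86, 4.66 and 4.19 CPM in the Do tables and 26.6, 28.4 and 32.7 CPM in the Rasa1_KO tables (-2.56 ± 0.15, adjusted p = 1.4e-05), together with the co-receptors *Lrp5* (-0.75) and *Lrp6* (-0.65) and the R-spondin *Rspo3* (-1.32). *Bmp4* and *Igfbp4*, both genes the study discusses, were higher. *Bmp4*, a BMP ligand, was at 67.4, 69.2 and 69.3 CPM in the Do tables and 43.2, 47.8 and 55.5 CPM in the Rasa1_KO tables (0.50 ± 0.10, adjusted p = 0.0037). *Igfbp4*, an IGF-binding protein that also antagonises Wnt, was at 247, 253 and 275 CPM in the Do tables and 180.2, 119 and 113 CPM in the Rasa1_KO tables (0.93 ± 0.16, adjusted p = 0.002). The study showed *Bmp4*, *Igfbp4*, *Wnt5a*, *Ccn1* and *Ccn2* as Wnt inhibitors in the RNA-seq of its *Nf2* KO and control tumorspheres. They were named here because the study discusses them, and their direction is not taken as independent evidence.

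Of 15 apoptosis regulators of the BCL2 family tested, 3 were higher (20%) and 5 lower (33.3%), none by 3-fold, near the 23.4% and 23.8% of all genes (median -0.03, -0.09 without the unnumbered library). *Bcl2* was at 22.7, 26.6 and 23.1 CPM in the Do tables and 24.7, 24.7 and 25.1 CPM in the Rasa1_KO tables, a log2 fold change of -0.03 ± 0.09 that did not pass (adjusted p = 0.83). *Bcl2l1*, which encodes Bcl-xL, was at 36.7, 43.01 and 42.9 CPM in the Do tables and 50.3, 54.5 and 48.5 CPM in the Rasa1_KO tables (-0.31 ± 0.09, adjusted p = 0.023), and its call was lost without Do replicate 1, without Rasa1_KO replicate 2, in the fit of 12 libraries and with a replicate block by title number. *Birc5*, an inhibitor of apoptosis and a mitotic protein, was at 19.2, 20.6 and 21.4 CPM in the Do tables and 18.3, 22.2 and 21.3 CPM in the Rasa1_KO tables, and its groups overlapped.

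**Figure D3:**
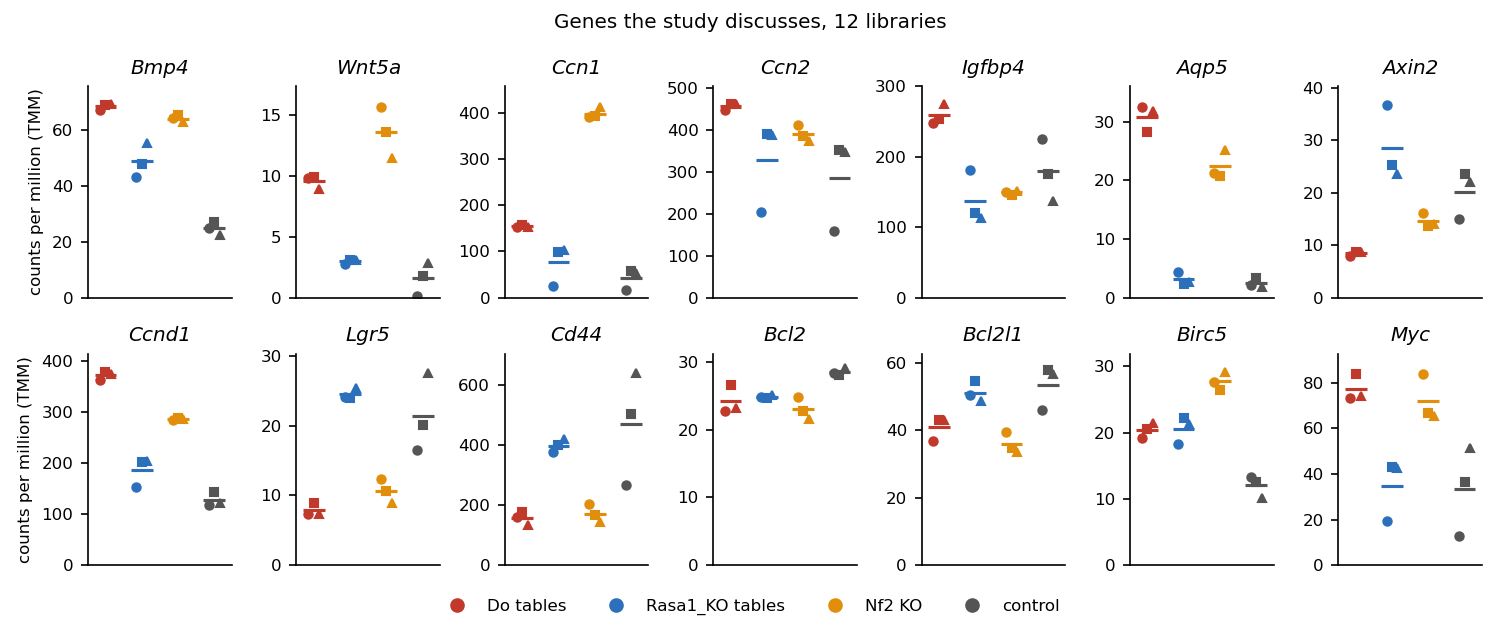
CPM (linear axes from 0) in each of the 12 libraries for 14 genes the study discusses. Points are libraries and lines are group means. *Aqp5*, *Wnt5a* and *Ccnd1* are higher and *Lgr5*, *Cd44* and *Axin2* lower in the Do tables than in the Rasa1_KO tables, and the circle of the Rasa1_KO group, the table with no number, is low for *Ccn1*, *Ccn2* and *Myc*.

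Collagens and matrix proteases were more often higher than lower, whereas laminins, integrins and matrix glycoproteins were 8 higher (27.6%) and 13 lower (44.8%) of 29 tested. Of all genes 23.4% were higher and 23.8% lower. Of 29 collagens 23 were tested, 11 higher (47.8%) and 5 lower (21.7%, near the share of all genes), with a median of 0.49. At least 3-fold higher were 8, against 2.08% of all genes. *Col3a1*, the fibrillar type III chain, was at 2285, 2391 and 2406 CPM in the Do tables and 98.1, 244 and 239 CPM in the Rasa1_KO tables (3.62 ± 0.33, adjusted p = 9.1e-05). *Col1a1* was at 65.9, 89.3 and 55.3 CPM in the Do tables and 2.82, 11.2 and 10.8 CPM in the Rasa1_KO tables (3.10 ± 0.47, adjusted p = 0.001). *Col12a1*, which decorates fibrils, was higher too (2.46). The chains of types I, III and V were higher, while *Col27a1* (-2.13), *Col15a1* (-1.98), a basement membrane collagen, and *Col6a2* (-0.83) were lower. The fibroblast markers overlap with this list, as 3 of their 7 tested members are the same collagen genes. *Pdgfra* and *Pdgfrb* are members too. Their summed level, 2485 to 2621 CPM against 119 to 273 CPM, was mostly *Col3a1* in both groups. It is thus not a measure separate from the collagens and the PDGF receptors. The part of the fibroblast markers in the results for other mesenchymal genes was not tested. Of matrix proteases and their regulators, 15 of 28 were higher (53.6%) and 9 lower (32.1%), with a median of 0.49. *Lox*, which crosslinks collagen, was at 142, 143 and 122 CPM in the Do tables and 22.1, 21.4 and 22.2 CPM in the Rasa1_KO tables (2.64 ± 0.08, adjusted p = 8.5e-07). *Mmp7*, the matrilysin of glandular epithelium, went the other way, at 0.907, 0.439 and 0.747 CPM in the Do tables and 3.59, 13.4 and 13.1 CPM in the Rasa1_KO tables (-3.84 ± 0.53, adjusted p = 0.00068). Of 14 mesenchymal genes 6 were higher (42.9%) and 3 lower (21.4%, near the 23.8% of all genes). The filament protein gene *Vim* was at 3672, 3713 and 3759.6 CPM in the Do tables and 1424, 1733 and 1709.9 CPM in the Rasa1_KO tables (1.21 ± 0.10, adjusted p = 6.3e-05). *Fn1*, fibronectin, was lower, at 1567, 1929 and 1316 CPM in the Do tables and 3309.8, 4537 and 4616 CPM in the Rasa1_KO tables (-1.36 ± 0.18, adjusted p = 0.00051).

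Growth factor genes for PDGF, FGF and IGF changed on both sides, 11 of 23 higher (47.8%, against 23.4% of all genes) and 8 lower (34.8%, against 23.8%). Both PDGF receptors rose, *Pdgfrb* to 38.4, 41.3 and 38.1 CPM from 2.24, 4.06 and 4.32 CPM (3.49 ± 0.23, adjusted p = 2.5e-05), and so did the ligand *Pdgfa* (0.76), while *Pdgfc* was lower (-1.26). For the FGF receptors, *Fgfr1* rose as above and the epithelial receptor *Fgfr2* fell, at 55.0, 52.6 and 52.5 CPM in the Do tables and 176, 114 and 113 CPM in the Rasa1_KO tables (-1.31 ± 0.16, adjusted p = 0.00032). *Fgf7*, a ligand of the epithelial isoform of that receptor, was higher (2.40), as was the FGF carrier *Fgfbp1* (2.86). *Igfbp5* was lower (-2.99).

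Junction and mucin genes were more often lower, while epithelial markers stayed near the 23.4% higher and 23.8% lower of all genes. Of 10 epithelial markers 3 were higher (30%), *Krt7*, *Cldn3* (0.80) and *Krt18* (0.38), and 2 lower (20%), *Cdh1* and *Epcam*. The call of *Krt18* was lost without Do replicate 1 or 3, in the fit of 12 libraries and with a replicate block by title number. That of *Epcam* was lost without any 1 of the Do tables, without Rasa1_KO replicate 2 or 3 and with that block. Without the unnumbered library 4 were higher and 4 lower. Of 27 junction and polarity genes 14 were lower (51.9%) and 4 higher (14.8%), with a median of -0.47. *Cdh1*, E-cadherin, of which the model's background carries a conditional allele, was at 148, 176 and 149 CPM in the Do tables and 466, 341 and 355 CPM in the Rasa1_KO tables (-1.28 ± 0.13, adjusted p = 0.00012). *Dsp*, desmoplakin, was at 115, 137 and 122 CPM in the Do tables and 322, 301 and 306 CPM in the Rasa1_KO tables (-1.30 ± 0.08, adjusted p = 2.0e-05). *Tjp3*, a tight junction scaffold, was at 13.5, 13.8 and 14.3 CPM in the Do tables and 39.5, 44.1 and 42.7 CPM in the Rasa1_KO tables (-1.59 ± 0.08, adjusted p = 8.6e-06). *Cldn6*, a claudin of immature epithelium, was the exception with a large rise, at 54.7, 53.3 and 56.4 CPM in the Do tables and 4.87, 6.62 and 6.75 CPM in the Rasa1_KO tables (3.19 ± 0.14, adjusted p = 3.9e-06). Keratins went both ways. *Krt7* was higher, at 372, 372 and 383 CPM in the Do tables and 51.4, 103 and 98.8 CPM in the Rasa1_KO tables (2.17 ± 0.24, adjusted p = 0.00023), and *Krt14* (-2.42) and the cornified envelope gene *Ivl* (-3.52) were lower. Of mucins and gastric epithelial genes 24 of 34 were tested, 11 of them lower (45.8%), with a median of -0.65. Higher was 1 (4.17%), *Cdx2* (1.34), an intestinal homeobox factor, or 2 without the unnumbered library. *Muc5b* was at 13.9, 17.1 and 10.6 CPM in the Do tables and 51.0, 116 and 111 CPM in the Rasa1_KO tables (-2.72 ± 0.32, adjusted p = 0.00031). *Muc13* was at 26.2, 24.3 and 26.7 CPM in the Do tables and 52.1, 117 and 119 CPM in the Rasa1_KO tables (-1.89 ± 0.29, adjusted p = 0.001).

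Mucosal defence and acute-phase genes had the lowest median of the lists. The list was chosen with earlier results of these data known, and it holds *Hp*, *Pigr* and *Saa3* of the 15 largest decreases. Its low median is therefore not independent evidence. Of 27 listed 15 were tested and 12 were lower (80%, against 23.8% of all genes), with a median log2 fold change of -3.60. At least 3-fold lower were 11, against 3.61% of all genes. Their summed level was 1141 to 1155 CPM in the Do tables and 4924 to 7045 CPM in the Rasa1_KO tables. *C3*, the central complement component, was at 162, 180.5 and 161 CPM in the Do tables and 2989.5, 1575 and 1624 CPM in the Rasa1_KO tables (-3.60 ± 0.25, adjusted p = 2.8e-05). *Lcn2*, an iron-sequestering antibacterial protein, was at 38.03, 39.7 and 38.1 CPM in the Do tables and 557, 429.7 and 447 CPM in the Rasa1_KO tables (-3.61 ± 0.11, adjusted p = 7.3e-07). *Lrg1* (-4.62), *Olfm4* (-4.20), *Cfb* (-2.59), *Chil1* (-2.48) and *Nos2* (-1.82) were lower as well, beside *Hp*, *Pigr* and *Saa3* above. The 1 member that was higher was *Wfdc2* (0.51), a whey acidic protein. Cytokines and chemokines went the same way for the most part, 17 of 27 lower (63.0%) and 5 higher (18.5%, against 23.4% of all genes). Their median of -0.85 became -0.43 without the unnumbered library. *Tnf* (-1.96), *Ccl20* (-1.73), *Il1rn* (-1.33) and *Ccl2* (-1.32) were lower, and *Il6* (2.89) and *Il33* were higher. The leukocyte marker *Ptprc* did not pass, at 0.315, 0.11 and 0.245 CPM in the Do tables and 0.414, 0.439 and 0.391 CPM in the Rasa1_KO tables.

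Stem-cell markers of stomach and intestine were 9 lower (50%, against 23.8% of all genes) and 5 higher (27.8%, against 23.4%) of 18 tested (median -0.73). *Aldh1a1*, a retinaldehyde dehydrogenase used to sort cancer stem cells, was at 7.08, 6.50 and 6.34 CPM in the Do tables and 61.3, 57.8 and 58.8 CPM in the Rasa1_KO tables (-3.14 ± 0.08, adjusted p = 4.4e-07). *Clu*, clusterin, was at 794, 823 and 869 CPM in the Do tables and 3178, 3457 and 3525 CPM in the Rasa1_KO tables (-2.02 ± 0.09, adjusted p = 3.8e-06). *Prom1*, which encodes CD133, was lower (-0.75). Those that rose were *Aqp5*, *Hopx* (2.16), *Ly6a* (1.35), *Bmi1* (0.26) and *Anxa1* (0.26). *Ly6a*, which encodes Sca-1, and *Anxa1* are known from regenerating epithelium.

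Metabolic lists were more often higher than lower, beside 23.4% of all genes higher and 23.8% lower. Of 25 sterol and fatty-acid synthesis genes 17 were higher (68%) and 1, *Fasn* (-0.28), lower (4%), with a median of 0.92. *Sqle*, squalene epoxidase, was at 398, 397 and 408 CPM in the Do tables and 201, 148 and 146 CPM in the Rasa1_KO tables (1.30 ± 0.12, adjusted p = 7.9e-05). *Insig1*, the feedback sensor of sterols, was at 274, 259 and 269 CPM in the Do tables and 105, 72.1 and 71.7 CPM in the Rasa1_KO tables (1.71 ± 0.14, adjusted p = 5.4e-05). *Mvd* (1.5), *Fdps* (1.46) and *Hmgcs1* (1.12) rose as well, whereas the regulators *Srebf1* (-0.19) and *Srebf2* (-0.11) did not pass. In 25 glycolysis and hypoxia genes, 18 were higher (72%) and 1, *Pfkfb3* (-1.07), lower (4%), with a median of 0.47. *Pgk1*, a glycolytic kinase, was at 3822, 3624 and 3789.8 CPM in the Do tables and 1859, 1712 and 1744 CPM in the Rasa1_KO tables (1.1 ± 0.07, adjusted p = 2.7e-05). *Aldoa* (0.99), *Pdk1* (0.86) and *Bnip3* (0.99) rose as well. When the unnumbered library was left out, 20 of these 25 were higher and 4 lower. In the ATF4 and unfolded-protein list, 11 of 20 were higher (55%) and 3 lower (15%). *Ddit3*, which encodes CHOP, led the list, at 148, 146 and 161 CPM in the Do tables and 44.9, 28.6 and 27.4 CPM in the Rasa1_KO tables (2.19 ± 0.17, adjusted p = 5.0e-05), with *Atf4* itself at 1.13.

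Genes of S phase and mitosis were more often higher, 17 of 30 higher (56.7%) and 4 lower (13.3%) with a median of 0.30 and none at least 3-fold. Of all genes 23.4% were higher and 23.8% lower. *Rrm2*, a ribonucleotide reductase subunit, was at 89.0, 94.0 and 90.7 CPM in the Do tables and 48.3, 56.8 and 54.4 CPM in the Rasa1_KO tables (0.79 ± 0.08, adjusted p = 0.00017). *Mki67*, the proliferation antigen, was lower, at 105, 117 and 98.5 CPM in the Do tables and 149, 159 and 165 CPM in the Rasa1_KO tables (-0.55 ± 0.09, adjusted p = 0.0012). Outputs and feedback regulators of ERK, the kinase below Ras, were 11 higher (61.1%) and 4 lower (22.2%, near the share of all genes) of 18 (median 0.34). *Dusp5* (0.76), *Etv1* (1.49) and *Fosl1* (0.91) were higher and *Phlda1* (-1.43) lower. Among the other Ras GTPase-activating genes *Rasal1* fell most, at 4.01, 4.196 and 3.23 CPM in the Do tables and 48.2, 29.6 and 26.4 CPM in the Rasa1_KO tables (-3.17 ± 0.23, adjusted p = 3.6e-05).

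**Figure D4:**
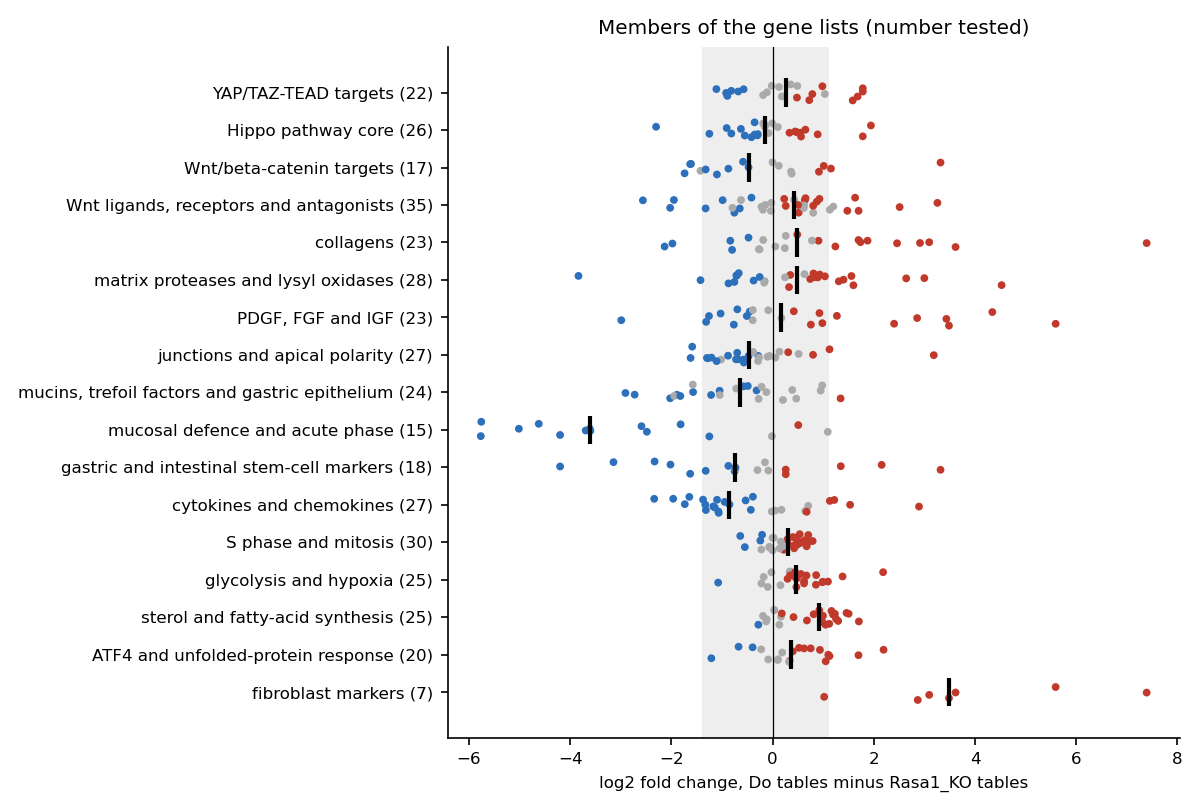
Log2 fold change (Do tables minus Rasa1_KO tables) of each tested member of 17 gene lists. Red points are members that were higher, blue points lower, grey points did not pass an adjusted p of 0.05, black bars are medians, and the grey band holds the 5th to 95th percentile of all genes (-1.38 to 1.1). The mucosal defence list has its median at -3.60, outside the band, and the fibroblast markers have theirs at 3.49.

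The same question on a background not labelled Rasa1 KO was asked with the libraries labelled Nf2 KO and control, which share no library with the 6 tables above. In both comparisons, however, the group with higher *Nf2* held 1 table with no number. The control one read 39.4 CPM for *Col3a1*, against 806 and 595 in its companions, and 64.8 CPM for *Cpn1*, against 16.4 and 11.6. The unnumbered Rasa1_KO table lay to the same side for both genes, but to the opposite side for *Saa3* (control 460, 366 and 312 CPM). There 5130 of 17739 genes (28.9%) passed, 13.1% higher and 15.8% lower, with 3.32% at least 3-fold higher and 6.03% at least 3-fold lower. Of 17457 genes tested in both, 3835 passed in both, 46.2% of those called between the Do and Rasa1_KO tables and 75.0% of those called between Nf2 KO and control, and 3767 had the same direction. Without both tables that have no number, 7692 genes passed in both with the same direction. Of the genes changed at least 3-fold, 624 were shared, 62.7% and 38% of the respective lists, and 622 had the same direction. The exceptions were *P2ry14*, a receptor for UDP-glucose, and *B4galnt3*, a glycosyltransferase. Among the 15 genes named as most raised 13 were also higher in the Nf2 KO libraries, and all 15 of the most lowered were also lower there. *Col1a2* had a log2 fold change of 9.40 and *Hp* of -5.82 in that comparison.

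A difference between the backgrounds was tested as an interaction over all 12 libraries, and 1157 of 18053 genes (6.41%) passed. *Cdh11*, a mesenchymal cadherin, differed most among the genes eligible to be named. It was at 6.49, 5.72 and 5.58 CPM in the Do tables and 0.213, 0.652 and 0.504 CPM in the Rasa1_KO tables, and at 0.496, 0.501 and 0.494 CPM in the Nf2 KO libraries and 0.162, 2.57 and 2.86 CPM in the control libraries. It rose in the Do tables (3.72) and read -1.97 in Nf2 KO against control, which did not pass there, an interaction of 5.62 ± 1.05 on the log2 scale (adjusted p = 0.0088). *Fmo1*, a flavin monooxygenase, rose in both comparisons but further here, with an interaction of 3.27 ± 0.37 (adjusted p = 0.00063). *Olfm4* (3.40 ± 0.64), *Fxyd3* (3.43 ± 0.52) and *Ms4a8a* (4.47 ± 0.58) fell in both but less here. *Olfm4* ended near 0 in both, at 0.0515 to 0.252 CPM in the Do tables and 0.0456 to 0.0945 CPM in the Nf2 KO libraries. Its starting levels differed, at 2.09 to 2.85 CPM in the Rasa1_KO tables and 9.92 to 16.3 CPM in the control libraries. *Pamr1*, a muscle-regeneration protein, went in opposite directions, 0.98 here and -2.70 in Nf2 KO against control (interaction 3.63 ± 0.22, adjusted p = 2.5e-05). Of the genes the study discusses, *Axin2* fell here and read -0.52 in Nf2 KO against control, which did not pass there (interaction -1.26 ± 0.27, adjusted p = 0.019) and *Bmp4* rose less (-0.86 ± 0.15, adjusted p = 0.0065). *Birc5*, at 27.6, 26.5 and 29.2 CPM in the Nf2 KO and 13.3, 12.6 and 10.2 CPM in the control libraries, was higher there and not here (-1.21 ± 0.17, adjusted p = 0.0018). The count of such genes rested on few libraries. It was 3762 without the control table that has no number, and 628 to 710 without any 1 of the 3 Nf2 KO tables, the 3 Do tables or the 2 numbered Rasa1_KO tables.

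**Figure D5:**
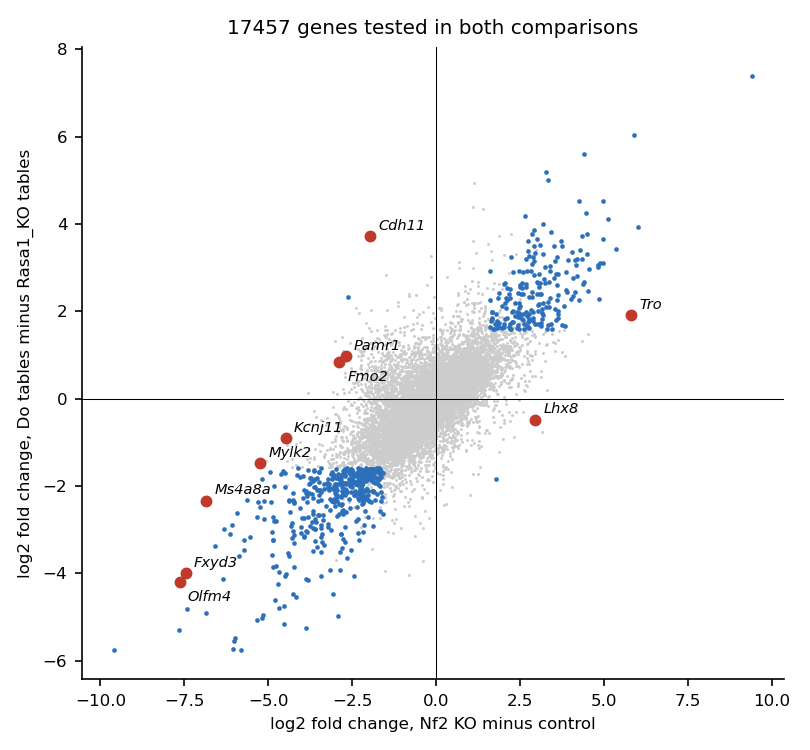
Log2 fold change of 17457 genes, Nf2 KO minus control (x) against Do tables minus Rasa1_KO tables (y). Grey points are all genes, blue points the 624 genes called at least 3-fold in both, and red points the 10 genes with the largest interaction among those eligible. Blue points fill the upper right and lower left, with *P2ry14* and *B4galnt3* outside them, and *Cdh11* is raised on the y axis alone.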

How the data were processed

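Total RNA was depleted of ribosomal RNA and sequenced from a stranded kit. Per the labels and the methods, adapters and poor bases were removed (Trimmomatic 0.38), and HISAT2 2.1.0 (alignment to mm10) and StringTie 2.1.3b (RefSeq gene levels) then gave the values the authors deposited. Whether the counting used strand is not given in the sources used here. The deposited read counts and FPKM values list 18926 genes in each table, and every count is at least 1, since the authors left out genes with a 0 in any library. Groups follow the labels, and the text calls them by table name. Counts were scaled by TMM and tested with the quasi-likelihood test of edgeR 4.0.16 (R 4.3.3) after its filter on low counts, on the 6 libraries alone, with Benjamini-Hochberg adjustment. The CPM values printed use TMM factors over all 12 libraries. Nf2 KO against control was fitted on its own 6 libraries, and the interaction on all 12. Called means an adjusted p under 0.05. On simulated counts for this comparison (17582 genes), 67 of 100 genes changed 2-fold and 83 of 100 changed 3-fold were called, with 14 unchanged genes. No other genes were changed there, a far smaller share than the 47.2% called in the data. These call rates therefore do not give the sensitivity of the real comparison.

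Genes named were *Nf2*, *Rasa1*, 14 genes of the study, the 15 highest and 15 lowest log2 fold changes (called, mean of at least 2 CPM, more than 3 counts in each library, groups apart), up to 6 called members of each list with a mean of at least 1 CPM, and the 10 largest interactions. Other members of a list, the 2 genes of opposite direction and the comparison without the library that stood apart were added after the values were seen. The members and lists were chosen with earlier results of these data known. Alternatives were DESeq2 1.42.0, other size factors (RLE), no filter, 1 fit of 12 libraries, limma 3.58.1 on log2(FPKM + 1) for genes of mean FPKM of at least 0.1, replicate blocks and each library left out. With 3 against 3 libraries an exact permutation test cannot go below p = 0.1, so none was used. Counts of near-identical copies, such as histones and heat-shock genes, are uncertain.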

Additional observations from a re-analysis of the deposited data

Results flagged for a closer look

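The loss of *Nf2* mRNA was compared on the backgrounds with low and with intact *Rasa1*, and results for which the difference of differences itself passed (interaction in edgeR's quasi-likelihood test over 12 libraries, adjusted p under 0.05) are given here as values on the log2 scale. In all, 1157 genes passed. Of 56 named genes checked, 16 did. The values were positive, that is, the log2 fold change was higher between the Do and Rasa1_KO tables than between Nf2 KO and control, for *Cdh11* (5.62), *Ms4a8a* (4.47), *Mylk2* (3.72), *Fmo2* (3.69), *Pamr1* (3.63), *Kcnj11* (3.54), *Fxyd3* (3.43), *Olfm4* (3.40), *Fmo1* (3.27) and *Igfbp4* (1.19). They were negative for *Tro* (-3.94), *Lhx8* (-3.48), *Serpinb7* (-2.15), *Axin2* (-1.26), *Birc5* (-1.21) and *Bmp4* (-0.86). *Fmo1*, *Fmo2*, *Pamr1*, *Kcnj11*, *Fxyd3*, *Ms4a8a*, *Birc5* and *Serpinb7* passed under every alternative run for the interaction, while *Tro*, *Mylk2*, *Lhx8*, *Igfbp4* and *Axin2* lost their call without at least 1 library and *Cdh11*, *Olfm4* and *Bmp4* with a replicate block by title number. The 10 with the largest values were chosen for them.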

How the results depend on the processing

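Against 8306 genes called, 1 fit of all 12 libraries called 5464 (2528 higher), and 1013 genes passed the study's rule of 3-fold with an unadjusted p under 0.05 (370 higher, 643 lower). On log2(FPKM + 1), which understates low genes, 76 genes were at least 3-fold higher and 104 lower, and the median of the Wnt targets was -0.26. Leaving out each library in turn gave 6198 to 10477 genes called, 3020 to 5284 higher and 3178 to 5193 lower, with the highest counts without the Rasa1_KO table that has no number. For libraries with same-numbered titles, the deviations from the group means had correlations of -0.01 and 0.03. The Rasa1_KO mean included the library that stood apart, so these values cannot show whether the libraries were paired. With a replicate block by title number 3525 genes were called (1671 higher, 1854 lower) and 305 depended on background. Background-dependent genes numbered 2078 by DESeq2, 628 to 3762 with a library left out, and 4603 without both tables that have no number, an alternative chosen after seeing the data, as was a block by table number (9670 genes called). Genes called in both backgrounds in the same direction numbered 1999 to 6468 with a library left out (1999 to 2230 without any 1 Nf2 KO library, 2207 without control replicate 2, 6468 without control replicate 1) and 7692 without both such tables. *Bcl2* and *Birc5*, which did not pass, changed sign. The log2 fold change of *Bcl2* was 0.024 with the replicate block by title number and -0.10 to 0.0097 with a library left out. That of *Birc5* was 0.10 on log2(FPKM + 1), 0.075 with that block and -0.087 to 0.052 with a library left out, above 0 without Do replicate 1 or Rasa1_KO replicate 2 or 3. *Nf2* and *Rasa1* kept direction and call throughout. Of 218 named genes, 167 kept direction and side of the threshold in every alternative. The causes were not tested.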

Other observations

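The counts here stand beside 23.4% of all genes higher and 23.8% lower. Of 15 contractile genes under SRF 5 were higher and 5 lower. *Acta2*, smooth-muscle actin, was at 1.28, 0.781 and 1.16 CPM in the Do tables and 8.62, 16.8 and 17.3 CPM in the Rasa1_KO tables (-3.72 ± 0.32, adjusted p = 6.9e-05). *Myl9*, a myosin light chain, was at 0.315, 0.256 and 0.245 CPM in the Do tables and 6.36, 3.69 and 3.82 CPM in the Rasa1_KO tables (-4.06 ± 0.29, adjusted p = 3.2e-05).

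BMP pathway genes were 11 higher and 4 lower of 22 (median 0.35, 0.19 without the unnumbered Rasa1_KO library), and 4 secreted antagonists were among those higher. *Grem1* was at 33.3, 36.6 and 35.3 CPM in the Do tables and 2.77, 7.27 and 6.78 CPM in the Rasa1_KO tables (2.66 ± 0.32, adjusted p = 0.00032). *Nog* (1.39), *Chrd* (0.91) and *Fst* (1.26) were also higher. Of replication-dependent histones 9 of 26 (34.6%) were higher and none lower, or 14 higher without that library. In the interferon and antigen presentation list 9 of 31 (29.0%) were lower and 4 higher, or 16 lower and 4 higher without that library, with *Cd74* (-2.02) the strongest.

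Other lists went both ways. Notch genes were 2 higher and 4 lower of 14, with *Notch3* at 1.63 and *Notch1* at -1.34. EGF-family genes were 6 higher and 6 lower of 15, with the ligand *Areg* higher (1.52) and the receptor *Egfr* lower (-0.63). Of 15 G1 cyclins and CDK inhibitors 7 were higher and 3 lower, with the inhibitor *Cdkn1c* higher (1.63). Xenobiotic and aldehyde enzymes were 9 higher (26.5%) and 11 lower (32.4%) of 34. Serpin B and keratin genes were 10 higher and 6 lower of 26. Immediate early and stress genes were 4 higher and 3 lower of 15, and 5 higher and 9 lower when the unnumbered Rasa1_KO library was left out. Of the 3 genes altered in the model, *Cdh1* and *Trp53* (-0.88) were lower and *Smad4* did not pass (0.14).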
